A study of Mus musculus with 8 samples.

Results

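The rows Gm17017, Gm10552, Sp140, Sp100 and Sp110 describe a cluster of nuclear body genes on mouse chromosome 1, and they are 5 of the 54146 rows of the gene count table. They were chosen by name, after earlier results had shown the Gm17017 and Gm10552 rows past the threshold when the drug combination was compared with DMSO, and the other 12 rows that lie in or reach into 85500000 to 85800000 (mm10) were taken as local context. RNA was measured in ID8-OR cells, which derive from the mouse ovarian cancer line ID8 and resist olaparib. The cells had received the solvent DMSO, olaparib, EZM8266 or the combination of both compounds for 72 hours. Olaparib inhibits PARP enzymes, and EZM8266 inhibits EHMT1 and EHMT2 according to the labels, enzymes known to methylate lysine 9 of histone H3. Each of the 4 groups had 2 libraries, and resistance to olaparib was shared by all of them, the DMSO group included. The doses are not given in the sources used here, and all libraries come from a single cell line. The labels speak of treatment replicates but do not say whether these were separate cultures, so p-values cover only the spread among libraries, and that spread may be technical. For combination replicate 2 the treatment label reads EZM8267, and that library was kept in the group of its title.

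Sp100, Sp110 and Sp140 encode related proteins of nuclear bodies, small dots in the nucleus that hold the PML protein, SUMO-modified proteins and chromatin regulators. Sp100 is a founding component of these bodies, and Sp110 and Sp140 carry a bromodomain, a PHD finger and a DNA-binding SAND domain by which they engage chromatin. The family is known to be switched on by interferons, and Sp140 is known mainly from leukocytes, where it restrains interferon genes. Gm17017 and Gm10552 are annotated as noncoding antisense genes on the strand opposite to Sp140. Mouse chromosome 1 also carries near-identical copies of family members, and the alignments counted here are named as unique ones, so fragments that match several copies may be missing from every row of the cluster.

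The strand of the counts decides what each row measures. In all 8 libraries the fragments of Rmrp, an abundant noncoding RNA, lay mainly in the row across from it. Its own row held 899 to 3314 fragments, while the row of Ccdc107, which overlaps Rmrp on the other strand, held 85234 to 194016. The Rmrp row was 1.04% to 1.68% of both rows together, a relative measure of how many fragments leak to the other strand. The rows of the highly expressed genes Gapdh and Actb held only 15 to 40 and 201 to 750 fragments. The Gm17017 and Gm10552 rows are therefore described as fragments on the strand of Sp140, and the rows of Sp140, Sp100 and Sp110 as fragments opposite to those genes. Of 19743299 to 30329847 fragments per library, 4.54% to 5.4% were assigned to a row. The libraries held 973382 to 1680974 counts. In these, 3 counts, the limit that a count of 0 allows, corresponded to 1.78 to 3.08 CPM (counts scaled to a common library total). Such limits cover counting error only. DMSO replicate 1 and olaparib replicate 2 stood apart from the others by rows over satellite repeats: the Gm10800 row held at least 22517 fragments in these and at most 4277 in any other library. For the comparisons with DMSO or olaparib, the values of the Gm17017 and Gm10552 rows without these libraries are given where they bear on the result, and the gene lists were not recomputed without them.

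The geometry of the cluster shows which fragments could reach each row. Sp110 runs leftward (85576899 to 85598817), and 1560 bases further on Sp140 (85600378 to 85645037) and then Sp100 (85649988 to 85709998) run rightward, with 4950 bases between Sp140 and Sp100. Gm17017 (85641222 to 85650585, leftward) has 2405 exon bases. Of these, 877 (36.5%) lie over exons of Sp140, 1337 over its introns, and 191, the upstream exon, inside the body of Sp100, 407 bases after its start and clear of its exons. The Gm17017 row can therefore hold spliced Sp140 fragments, unspliced Sp140 fragments and unspliced Sp100 fragments, and these cannot be told apart. Gm10552 (85604085 to 85611896, leftward) has 1056 exon bases, all within the body of Sp140, of which only 4 lie over an Sp140 exon. Those 4 bases are the last ones of exon 2 of the 17-exon coding transcript of Sp140, and a fragment is counted when it shares 1 base with a row by the default of the counting program, so Sp140 fragments that cross this exon end reach the row as well as intronic ones. RefSeq draws Sp110 longer than GENCODE does (85570735 to 85610850 in GRCm38.p6). Of the 1056 exon bases of Gm10552, 806 lie inside that longer Sp110, on the strand of Sp110. The Gm10552 row is read here as the other strand, so Sp110 fragments would reach it only by leakage. RefSeq also starts Sp140 earlier, at 85587491, within the body of Sp110 given above. Fragments of that longer Sp140 could therefore reach the Sp110 row, which was not tested.

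The windows in this paragraph are written on the strand of Sp140, from GENCODE M21 transcripts of GRCm38, the assembly of mm10. They are shown because they mark where each row meets an exon of Sp140, and where in the rows the fragments lay was not measured. The Gm17017 window (chr1:85643163-85643386) has exon 16 of Sp140 in capitals, 144 coding bases (85643203 to 85643346) between bases that are intronic in that transcript. The Gm10552 window (chr1:85609797-85609916) has in capitals the 4 bases that the Sp140 exon and the Gm10552 exon share (85609853 to 85609856).
Gm17017 window: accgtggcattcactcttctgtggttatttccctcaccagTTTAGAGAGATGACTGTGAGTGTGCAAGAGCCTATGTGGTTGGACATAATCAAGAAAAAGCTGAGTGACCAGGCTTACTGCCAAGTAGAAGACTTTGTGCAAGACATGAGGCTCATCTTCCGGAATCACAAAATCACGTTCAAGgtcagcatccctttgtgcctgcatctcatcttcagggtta
Gm10552 window: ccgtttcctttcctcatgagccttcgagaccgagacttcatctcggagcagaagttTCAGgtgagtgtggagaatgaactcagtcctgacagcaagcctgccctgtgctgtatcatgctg
The exon of the Gm17017 window is preceded by ag and followed by gt, the ends of introns of a gene on the strand of Sp140. The 4 capitals of the Gm10552 window are likewise followed by gt. Gm17017 and Gm10552 are read on the other strand, where these letters are reversed and complemented.

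**Figure D1:**
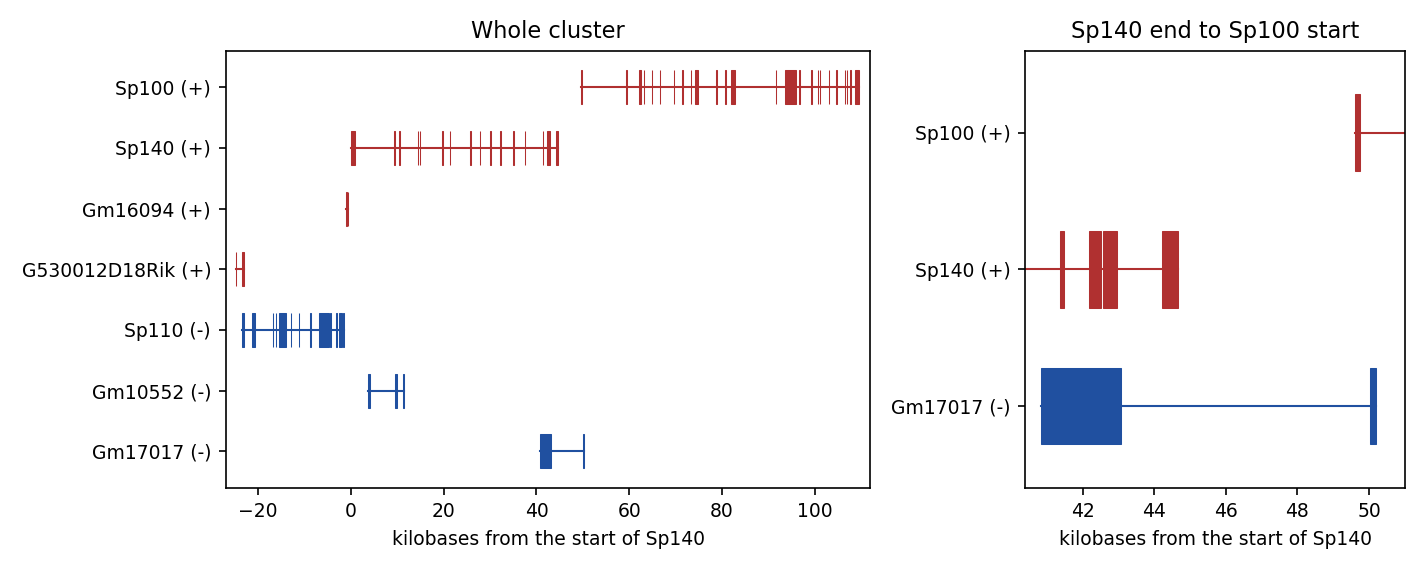
The 7 annotated genes of the cluster drawn by distance in kilobases from the start of Sp140, with exons as boxes, rightward genes (+) in red and leftward genes (-) in blue. The left panel shows the whole cluster and the right panel the 3 genes at the end of Sp140, where the large Gm17017 exon covers exons and introns of Sp140 and the small one lies just inside Sp100.

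Fragments on the strand of Sp140 had their lowest mean with DMSO and their highest with the combination. The Gm17017 row held 21 and 34 fragments under DMSO, 25 and 42 under olaparib, 58 and 50 under EZM8266, and 65 and 64 under the combination, in the order of the replicate numbers. Scaled by the TMM library factors of edgeR, these were 20.6 and 21 CPM under DMSO, 18.4 and 34.2 under olaparib, 43.9 and 49.7 under EZM8266, and 65.5 and 62.4 under the combination. The 4 libraries that received EZM8266 were all higher than the 4 that did not. The olaparib libraries lay on either side of the DMSO libraries, and the combination libraries lay above both EZM8266 libraries.

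The Gm10552 row was covered by fewer fragments, and its olaparib libraries were close together. It held 11 and 19 fragments under DMSO, 27 and 25 under olaparib, 33 and 32 under EZM8266, and 45 and 50 under the combination. In scaled CPM these were 10.8 and 11.7, then 19.9 and 20.3, then 25 and 31.8, then 45.3 and 48.7. The 4 groups did not overlap at any step of this order, so that the olaparib libraries stood above DMSO, EZM8266 above olaparib and the combination above EZM8266. Among all 6379 tested rows, 0.172% had their libraries in this full order, and 3.32% had all 4 EZM8266-treated libraries above the 4 others. Both patterns include the combination above DMSO, the comparison that chose the rows. The shares do not allow for that choice, and nothing is read from them. The order was noticed in these values and was not tested.

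**Figure D2:**
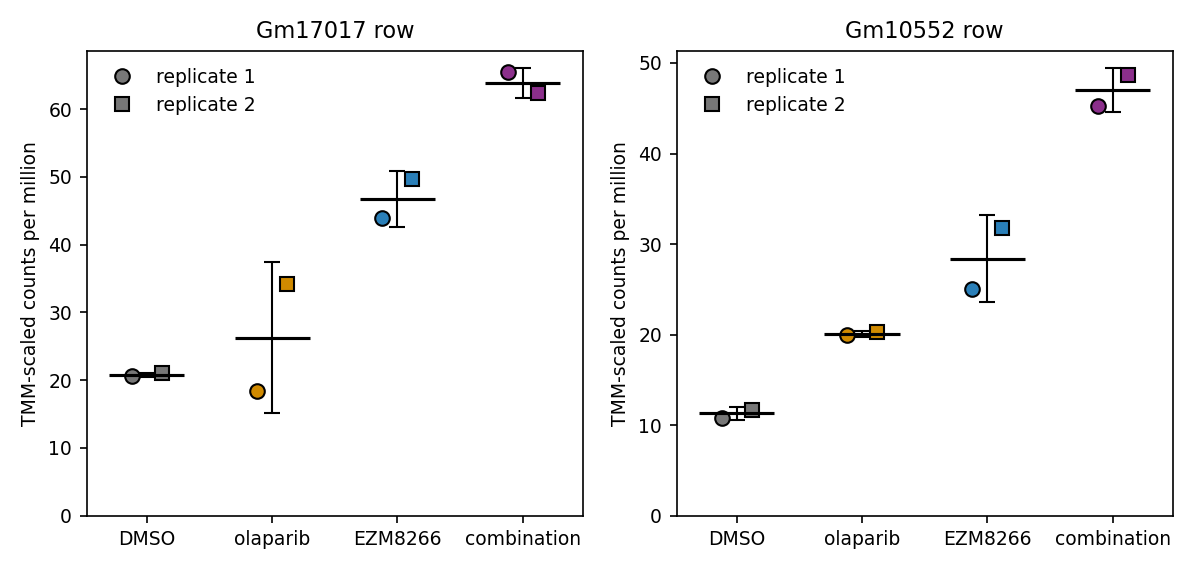
TMM-scaled CPM (vertical axis, linear from 0) of the Gm17017 and Gm10552 rows in each library by group, with circles for replicate 1 and squares for replicate 2, and a bar and whiskers for the mean and SD of 2 libraries. Both rows have their lowest mean with DMSO and their highest with the combination, and the olaparib libraries of the Gm17017 row are far apart.

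As group means, the Gm17017 row had 20.8 ± 0.303 CPM under DMSO, 26.3 ± 11.1 under olaparib, 46.8 ± 4.14 under EZM8266 and 63.9 ± 2.19 under the combination (SD, n = 2). The Gm10552 row had 11.3 ± 0.679, 20.1 ± 0.329, 28.4 ± 4.85 and 47 ± 2.41 CPM in the same order (SD, n = 2). Per kilobase of row exons, a rough allowance for row length, the mean levels with DMSO were 8.64 CPM for Gm17017 and 10.7 for Gm10552. With the combination they were 26.6 and 44.5. The Gm10552 row thus had the higher level on this scale in these groups. A fragment counts when it shares 1 base with a row, so the scale does not make rows of long and short exons fully comparable. Exonic and intronic fragments of Sp140 were not told apart.

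The combination against DMSO is the comparison that chose these rows, so its values are a description. The log2 fold change was 1.61 ± 0.29 (SE) for the Gm17017 row, or 3.06-fold, and 2.04 ± 0.30 for the Gm10552 row, or 4.12-fold. Both rows were among the 14 called at an adjusted p under 0.05 of 6379 tested, 0.219% of them, and nothing is read from that share. Without either DMSO library, or without either combination library, 0 members were called, while the log2 fold changes stayed at 1.59 to 1.66 for Gm17017 and 2 to 2.12 for Gm10552. Without DMSO replicate 1 and olaparib replicate 2 together they were 1.61 and 2, with 0 called. By p, the Gm17017 row was the last of those 14 and the Gm10552 row number 7. The combination libraries lay above the DMSO libraries in each row, as in 17.1% of the tested rows. The other 3 members did not reach the low-count filter and were not tested. Of the 5 members, 2 are therefore counted in each comparison below. In bulk RNA, more cells that carry a transcript and more transcript per cell cannot be told apart.

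The EHMT inhibitor alone was compared with DMSO to see how the cluster responds to it without olaparib. The level of the Gm17017 row was 2.24-fold that with DMSO (log2 fold change 1.16 ± 0.29, SE, 95% interval 0.53 to 1.8, edgeR adjusted p 0.278). For the Gm10552 row it was 2.47-fold (1.31 ± 0.31, 0.63 to 1.99, adjusted p 0.228). Both EZM8266 libraries lay above both DMSO libraries in each row, a separation that 16.2% of the tested rows also had. Neither row was called by edgeR or by DESeq2, against 0.204% of all tested rows called by edgeR, and both had an unadjusted p under 0.05. Without DMSO replicate 1 the log2 fold changes were 1.16 and 1.27, each with an adjusted p of 0.86. This comparison shares the DMSO libraries with the one that chose the rows.

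Olaparib alone against DMSO gave smaller differences. For Gm10552 the level was 1.77-fold that with DMSO (log2 fold change 0.82 ± 0.32, SE, 95% interval 0.12 to 1.52, edgeR adjusted p 0.999). For Gm17017 the log2 fold change was 0.32 ± 0.31 (-0.34 to 0.99, adjusted p 0.999), a value that rests on olaparib replicate 2 and was -0.16 without it. No member was called by edgeR or DESeq2, 1 of the 2 tested had an unadjusted p under 0.05, and 0% of all tested rows were called. Without both libraries that are rich in satellite fragments, olaparib replicate 2 and DMSO replicate 1, the Gm17017 value was -0.17. The DMSO libraries are again shared with the comparison that chose the rows.

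The combination was then set against each compound alone. Both comparisons share the combination libraries with the one that chose the rows, and the shares of all tested rows given here do not allow for that choice. Against olaparib, the log2 fold change of the Gm17017 row was 1.29 ± 0.28 (SE, 95% interval 0.68 to 1.9, edgeR adjusted p 0.222) and that of the Gm10552 row was 1.22 ± 0.28 (0.62 to 1.83, adjusted p 0.237). Both combination libraries lay above both olaparib libraries in each row, as in 15.9% of the tested rows. Neither was called by edgeR or DESeq2 with 0.0941% of all rows called by edgeR, and both had an unadjusted p under 0.05. With no filter on low counts the Gm17017 row passed (adjusted p 0.0169), as it did with the leakage share as a covariate (0.0164). Over all alternatives its value ranged from 0.91 to 1.78 and its adjusted p from 0.0164 to 0.999. Against EZM8266 alone the values were 0.45 ± 0.27 (-0.12 to 1.03, adjusted p 1) for Gm17017 and 0.74 ± 0.27 (0.15 to 1.32, adjusted p 1) for Gm10552. Here too the combination libraries were the higher ones in each row, as in 12.2% of the tested rows. Neither row was called by edgeR or DESeq2, 1 had an unadjusted p under 0.05, and 0% of all rows were called by edgeR.

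EZM8266 against olaparib uses none of the libraries of the comparison that chose the rows. It was added after the levels had been seen, as the pair of neighbours in their order. The log2 fold change was 0.84 ± 0.29 for the Gm17017 row (SE, 95% interval 0.22 to 1.45, edgeR adjusted p 0.913) and for the Gm10552 row 0.49 ± 0.29 (-0.14 to 1.11, adjusted p 1). The Gm17017 value was 0.46 without olaparib replicate 1 and 1.32 without olaparib replicate 2, and the Gm10552 value 0.31 without EZM8266 replicate 2. Neither was called by edgeR or DESeq2, 1 had an unadjusted p under 0.05, and 0.125% of all rows were called by edgeR. In the order of group means, DMSO, olaparib, EZM8266 and the combination, no pair of neighbours was therefore called for either row.

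The interaction asked whether the combination differed from the sum, on the log2 scale, of both single effects. It was 0.13 ± 0.41 (SE, 95% interval -0.76 to 1.02) for Gm17017 and -0.08 ± 0.41 (-0.97 to 0.8) for Gm10552, each with an edgeR adjusted p of 1. No member was called by edgeR or DESeq2, none had an unadjusted p under 0.05, and 0% of all rows were called by edgeR. Departures from the sum that lie within these intervals are not excluded by the fit. The interaction shares the DMSO and combination libraries with the comparison that chose the rows.

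**Figure D3:**
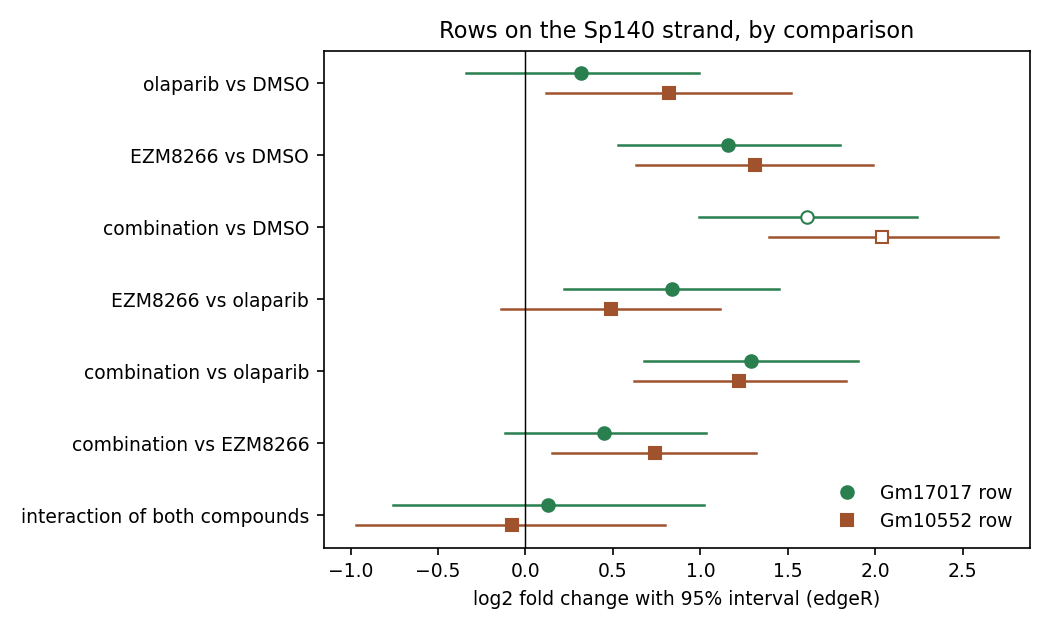
Log2 fold change (horizontal axis) of the Gm17017 row (circles) and the Gm10552 row (squares) in 7 comparisons, with the 95% interval of the edgeR fit as a line. Open symbols mark the combination against DMSO, the comparison that chose these rows. Every other comparison drawn shares libraries with it, except EZM8266 against olaparib. Both interaction intervals cross 0, while the intervals of both rows lie above 0 where EZM8266 or the combination is set against DMSO, and the combination against olaparib alone.

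Over all 4 libraries with EZM8266 the Gm17017 row had 55.4 ± 10.2 CPM, against 23.5 ± 7.18 in the 4 without (SD, n = 4 each). The Gm10552 row had 37.7 ± 11.2 and 15.7 ± 5.12 CPM. The fitted main effect of EZM8266 was a log2 fold change of 1.23 ± 0.20 and 1.27 ± 0.21 (SE). It contains the comparison that chose the rows, so it is a description, and 0.658% of the tested rows were called in it. Of the 2 members called, 0 were without DMSO replicate 2, where the log2 fold changes were 1.23 and 1.30. Without DMSO replicate 1 or either olaparib library only the Gm17017 row was called, and the Gm10552 row stood at 1.25 to 1.27. The Gm17017 value was 1.04 without olaparib replicate 1 and 1.47 without olaparib replicate 2. The S numbers in the library names are 33 to 36 in the libraries with EZM8266 and 41 to 44 in those without, so the effect of such a block and that of EZM8266 cannot be told apart. Olaparib against DMSO and the combination against EZM8266 each lie within a block, and their values are those given above.

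The rows of the protein-coding members themselves were close to the limit of counting. The Sp140 row, opposite to the Sp140 transcript, held 5 and 9 fragments under DMSO, 6 and 5 under olaparib, 6 and 7 under EZM8266, and 6 and 4 under the combination. The groups overlapped, and the means were 5.23 ± 0.467, 4.24 ± 0.246, 5.75 ± 1.71 and 4.97 ± 1.52 CPM (SD, n = 2). With no filter on low counts its log2 fold change for the combination against DMSO was -0.08 ± 0.71 (SE, 95% interval -1.47 to 1.31, edgeR adjusted p 1), in a fit of 27896 rows. The 2 rows on the strand of Sp140 were thus higher with the combination in libraries where the row of Sp140 itself held 4 to 6 fragments, and whether that row holds leakage or antisense RNA was not tested.

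Sp100, the component of PML bodies, had the thinnest row. It held 2 and 1 fragments under DMSO, 3 and 1 under olaparib, 2 and 2 under EZM8266, and 1 and 0 under the combination. Each of these counts is at or under the limit of 3, so no fold is given. No row of the table overlaps an exon of Sp100 on the other strand, and the 191 bases of Gm17017 are the only ones in the table inside its body on that strand, so spliced Sp100 transcripts were not measured.

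Sp110, once named Ipr1 for its link to resistance against intracellular pathogens in mice, held 4 and 7 fragments in its row under DMSO, 2 and 8 under olaparib, 8 and 4 under EZM8266, and 8 and 5 under the combination. Its groups overlapped, and with no low-count filter the log2 fold change for the combination against DMSO was 0.63 ± 0.71 (SE, -0.75 to 2.01, edgeR adjusted p 1). The strand of the Sp110 transcript is read by the row of G530012D18Rik (85575676 to 85577295), 392 of whose 420 exon bases lie over exons of Sp110. That row held 1 and 3 fragments under DMSO, 8 and 1 under olaparib, 10 and 5 under EZM8266, and 9 and 5 under the combination. Both groups with EZM8266 were above both DMSO libraries, while olaparib replicate 1 lay among those with EZM8266. Among the tested rows, 16.2% had both EZM8266 libraries above both DMSO libraries, and 17.1% had both combination libraries above them. The means were 1.42 ± 0.617, 3.35 ± 3.59, 6.27 ± 1.83 and 6.97 ± 2.96 CPM (SD, n = 2). The row did not reach the filter. Without the filter its log2 fold change was 2.04 ± 0.83 (SE, 95% interval 0.41 to 3.66) with EZM8266 and 2.14 ± 0.84 (0.5 to 3.78) with the combination against DMSO, each with an edgeR adjusted p of 1.

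**Figure D4:**
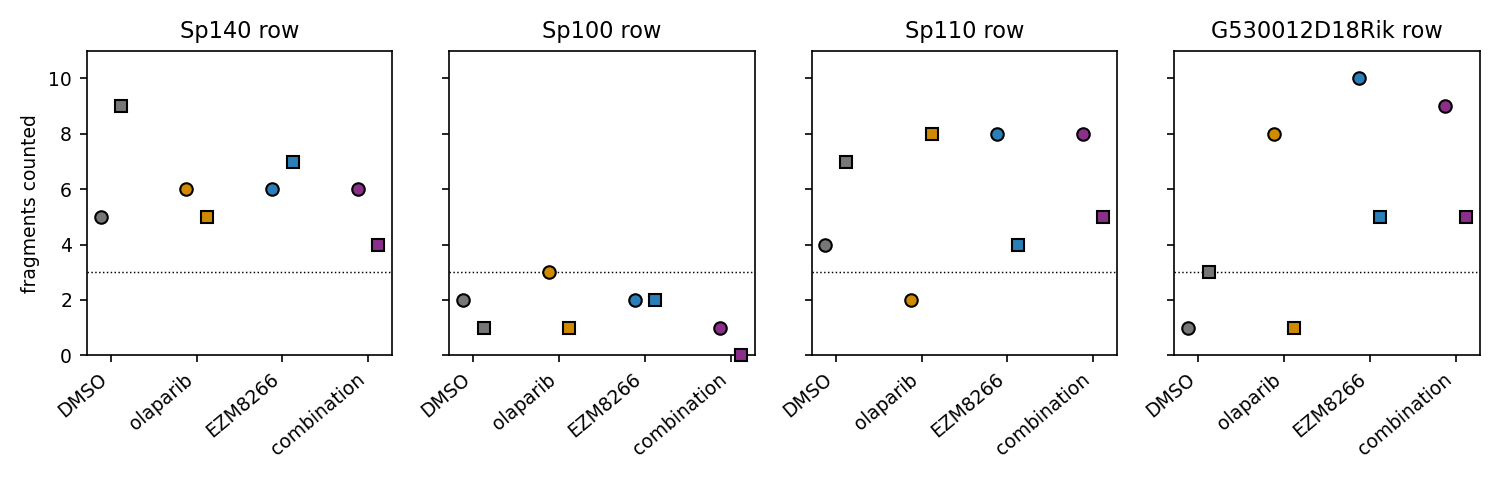
Fragments counted per library (vertical axis, linear from 0) in the rows of Sp140, Sp100, Sp110 and G530012D18Rik, by group, with circles for replicate 1 and squares for replicate 2. The dotted line marks 3 counts, above which no Sp100 library lies, and the groups of the Sp140 and Sp110 rows overlap.

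Of the other 12 rows of the window, 5 held no fragment in any library and 5 never more than 5. Among the latter is Gm16092 (85511133 to 85527161), a noncoding gene with the same 2405 exon bases as Gm17017 and 0 to 2 fragments. The remaining ones were G530012D18Rik and Cab39, a scaffold of the LKB1 kinase that reaches into the window from the right, with 5 to 21 fragments and 9.91 ± 4.32 CPM under DMSO, 5.34 ± 1.81 under olaparib, 6.65 ± 2.37 under EZM8266 and 8.9 ± 1.19 under the combination (SD, n = 2). The whole window held 52 to 144 fragments per library, of which the Gm17017 and Gm10552 rows made up 52.5% (DMSO replicate 2) to 81.4% (combination replicate 2). The higher counts with EZM8266 thus lay in the rows on the strand of Sp140 and, at a few fragments, on that of Sp110. The Cab39 row had its highest mean with DMSO, from libraries at 6.86 and 13 CPM. By the strand of the counts it holds fragments opposite to Cab39, so it does not read the Cab39 transcript.

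The promoters of the protein-coding members were compared because interferon-induced genes often carry sites for the IRF and STAT factors near their starts. The windows run from 250 bases before to 30 bases after the start of transcription (RefSeq, GRCm38.p6), and all 3 genes were found in the table. Matches to AANNGAAA, the core bound by IRF proteins, or to its reverse complement TTTCNNTT are in capitals, and overlapping matches run together.
Sp140 (chr1:85600453-85600732, plus strand): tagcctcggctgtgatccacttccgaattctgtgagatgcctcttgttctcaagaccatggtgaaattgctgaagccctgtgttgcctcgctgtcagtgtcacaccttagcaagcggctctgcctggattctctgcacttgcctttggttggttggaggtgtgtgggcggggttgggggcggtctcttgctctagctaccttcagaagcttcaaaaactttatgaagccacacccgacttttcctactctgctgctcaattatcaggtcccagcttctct
Sp100 (chr1:85649738-85650017, plus strand): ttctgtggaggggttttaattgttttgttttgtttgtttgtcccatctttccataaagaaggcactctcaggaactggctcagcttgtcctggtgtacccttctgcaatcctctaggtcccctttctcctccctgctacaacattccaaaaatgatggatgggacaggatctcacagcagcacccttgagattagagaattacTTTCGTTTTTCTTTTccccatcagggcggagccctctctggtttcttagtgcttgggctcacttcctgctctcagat
Sp110 (chr1:85598781-85599060, minus strand): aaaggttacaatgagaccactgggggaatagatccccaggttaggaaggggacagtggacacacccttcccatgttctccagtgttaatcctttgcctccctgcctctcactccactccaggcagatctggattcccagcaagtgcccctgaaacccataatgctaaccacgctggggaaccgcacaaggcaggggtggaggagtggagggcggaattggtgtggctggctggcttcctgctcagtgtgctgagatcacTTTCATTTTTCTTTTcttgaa
Sp100 held 2 overlapping matches from 47 to 33 bases before its start, TTTCGTTT and TTTCTTTT. Sp110 held 2 overlapping matches from base 10 to base 24 after its start, TTTCATTT and TTTCTTTT. Sp140 held none. Of all 32851 promoter windows of this length, 23.1% held at least 1 match to the core, so a match alone is common. The paired run that Sp100 and Sp110 share, TTTCNTTTTTCTTTT, chosen after these letters were seen, was found on either strand in 0.0396% of the windows, those of 12 of 27025 genes. These include Sp100 and Sp110 themselves, from which the run was written, so nothing is read from that share. Neither the longer ISRE core (GAAA, 2 free bases, GAAA; 3.28% of windows, both strands) nor the STAT site TTCNNNGAA (7.83%) was found in the windows of the 3 genes. A further start of Sp110 in RefSeq, at 85603891, had no match to any of these, and a further start of Sp100, at 85650014, held the same run.

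Genes with a pattern most like that of the Gm17017 and Gm10552 rows were sought among 2027 rows averaging 50 or more counts, by Pearson's r of log2 CPM over the 8 libraries. The first for both rows was A930037H05Rik, the row on the strand of Rnf213, a large interferon-induced ubiquitin ligase, with r of 0.964 and 0.972. It had 633 ± 15.3 CPM under DMSO, 765 ± 84.2 under olaparib, 938 ± 5.63 under EZM8266 and 1190 ± 48.1 under the combination (SD, n = 2), the same order of groups. For Gm17017 there followed the rows on the strands of Tirap, an adaptor of Toll-like receptors (Gm39318 row, 0.962), and Pip4k2c (F420014N23Rik row, 0.952), the row of the neurotrophic factor Gdnf (0.948) and Gm19221 (0.944). The Gdnf and Gm19221 rows hold, by the strand of the counts, fragments opposite to those genes. For Gm10552 there followed the rows on the strands of Pigh (Plekhh1 row, 0.97), Actn1 (Gm47766 row, 0.962), 4930523C07Rik (4930562F07Rik row, 0.948), and Zscan26 with Pgbd1 (4930470G03Rik row, 0.942). The Gm17017 and Gm10552 rows had an r of 0.911 with each other. These are descriptions over 8 libraries that share depth and treatment groups, and the median r over the rows compared was 0.139 and 0.152.

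The other components of nuclear bodies were read from a list. Of its 26 genes (PML, its SUMO machinery and partners), 9 had a tested row of their own and another 4 tested rows read the strand of a member. None was called by edgeR or DESeq2 for the combination against DMSO, and none had an unadjusted p under 0.05. Over all 6379 tested rows 0.219% were called by edgeR and 312 had an unadjusted p under 0.05, so few or no calls in a list of this size are no result about the list. The medians of the log2 fold change were -0.04 and 0.11, beside -0.02 over all tested rows. The own row of Topors, a SUMO and ubiquitin ligase of these bodies, had a mean of 33.6 ± 6.49 CPM with DMSO. With the combination it had 47.2 ± 8.8 CPM (SD, n = 2, log2 fold change 0.51 ± 0.28, SE, edgeR adjusted p 0.973). The Smim27 row, on the strands of Topors and Ndufb6, had a log2 fold change of -0.12 ± 0.15 (SE). That row overlaps more exon bases of Ndufb6 than of Topors, so the share of Topors in its value was not tested. On the strand of Senp1, a SUMO protease, the Gm26513 row had 0.18 ± 0.30.

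Lists of other SAND and bromodomain readers and of the H3 lysine 9 methylation machinery were read beside the same background of 0.219% called and 312 rows with an unadjusted p under 0.05. Of 16 readers, 8 had a tested row and 1 was read through the other strand, with 0 called by edgeR or DESeq2 for the combination against DMSO and 0 with an unadjusted p under 0.05. The row of Brd3, a BET reader of acetylated histones, stood at -0.90 ± 0.58 (log2 fold change with its SE, edgeR adjusted p 0.973), and by the strand of the counts it holds fragments opposite to the gene. Of 20 genes of H3 lysine 9 methylation, 10 rows of their own and 10 on the other strand were tested, again with 0 called by edgeR or DESeq2 and 0 with an unadjusted p under 0.05. On the strand of Kdm3b, a demethylase of that lysine (Gm26538 row), levels were 86.6 ± 3.63 CPM with DMSO and 69.8 ± 3.28 with the combination (SD, n = 2, log2 fold change -0.31 ± 0.18, SE, edgeR adjusted p 0.973).

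The interferon response list, to which the Sp genes are related by their known induction, had more members on the higher side. Of 52 genes, 10 rows on the strand of a member were tested and 10 were above 0 for the combination against DMSO, with a median log2 fold change of 0.74 beside -0.02 over all tested rows, 47% of which were above 0. Of these, 7 had an unadjusted p under 0.05, and 2 were called higher by edgeR and 2 by DESeq2, on the strands of Rnf213 (0.91 ± 0.12, SE, edgeR adjusted p 0.00338) and Cxcl10, a chemokine (Art3 row, 1.36 ± 0.21, adjusted p 0.016). Over all 6379 tested rows 0.219% were called by edgeR and 312 had an unadjusted p under 0.05. On the strands of Usp18, which removes ISG15 (Gm44148 row), and Adar, the RNA editing enzyme (Chrnb2 row), the values were 2.72 ± 0.59 and 0.62 ± 0.14, each with an adjusted p of 0.136. The Gm44148 row held only 1 to 27 fragments per library. Its mean with DMSO was 3.27 ± 3.24 CPM (SD, n = 2), close to the limit of counting. With EZM8266 alone the median was 0.55 and with olaparib alone 0.28. Of the 13 tested rows of members themselves, 10 were above 0 with the combination, with a median of 0.27 and none called by edgeR or DESeq2, and 2 had an unadjusted p under 0.05. Those with the smallest p were Dtx3l, a ubiquitin ligase (0.88 ± 0.27), and its partner Parp9 (0.81 ± 0.25), each with an edgeR adjusted p of 0.546. Their exons overlap on opposite strands, so each of the rows can hold fragments of the other gene. Both rows are for this reason counted among the 10 rows on the strand of a member as well as among these 13, so the readings are not separate. The row of Ddx58, which encodes the RNA sensor RIG-I, was on the lower side (-2.50 ± 1.16, adjusted p 0.973), with 0 to 57 fragments per library. The comparisons with DMSO share its libraries, and the list was drawn up with earlier results of these data known.

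Markers were checked because Sp140 is known from leukocytes. Of 8 epithelial and mesothelial markers, Wt1, Krt8, Krt18 and Krt19 had tested rows, with 13 to 58 fragments for Wt1, while the Epcam and Krt7 rows held 0 or 1. By the strand of the counts, such own rows hold fragments opposite to the genes. On the other strand, 2 rows of that list summed to 192 to 260 CPM over all libraries. The own rows of 5 fibroblast markers summed to 48.7 to 156 CPM, and those on the other strand to 0 to 0.975 CPM. The rows of 5 B cell markers held at most 3 fragments, as did those of 5 T cell markers, and their summed levels were 0 to 3.03 and 0 to 5.88 CPM over all libraries. Of 8 macrophage and dendritic markers, Lyz2, Adgre1 and Itgam were at 0 in every library and Ptprc, the pan-leukocyte marker, held 0 to 2 fragments. The Csf1r row held 88 to 134 fragments, and it overlaps exons of Hmgxb3 on the other strand. The macrophage and dendritic markers' own rows summed to 90.2 to 95 CPM with DMSO, 92 to 107 with olaparib, 96.8 to 103 with EZM8266 and 102 to 104 with the combination. Transcripts of these cells would be counted on the other strand. There the single row of that list had 4.9 to 5.56 CPM with DMSO and 3.25 to 3.68 with olaparib. It had 1.51 to 1.99 CPM with EZM8266 and 0 to 2.01 with the combination. On that strand B cell rows had 0 to 1.96 CPM and the T cell row 0 in all libraries. Most of these markers have no row on the other strand, so their part in the results was not tested.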

How the data were processed

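Fragments per gene were deposited as whole-number counts, not normalized. Per the submitters' processing notes, HISAT2 2.1.0 and the mm10 build were used. Per the file headers, featureCounts 1.6.2 counted read pairs over GENCODE M18 exons with strand setting 1, and let a fragment count for every gene it overlapped. Per the labels, ribosomal RNA was depleted and the KAPA mRNA HyperPrep kit was used. Stranded kits of the dUTP type are known to place the first read opposite to the transcript. Symbols came from GENCODE M21 (54079 of 54146 rows named), and overlaps between strands from the deposited exon coordinates.

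All 8 libraries entered 1 quasi-likelihood fit in edgeR 4.0.16 (R 4.3.3) with TMM scaling, 4 group means and filterByExpr (minimum count 10, minimum total 15), which kept 6379 rows. Calls used a Benjamini-Hochberg adjusted p under 0.05 over all tested rows. The procedure was tested on simulated data. Alternatives were DESeq2 1.42.0, RLE scaling, other filters, a replicate block, a leakage covariate, fits of the compared groups alone and leaving out libraries. The members, gene lists, rules and tests were chosen with earlier results of these data known. Named genes are the members, the rows of the window, the 5 rows most like each tested member (of which A930037H05Rik serves both), and up to 4 members per list with the smallest p for the combination against DMSO, of which those the text turns on are given. EZM8266 against olaparib and the paired promoter run were added after the data were seen.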

Additional observations from a re-analysis of the deposited data

How the results depend on the processing

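Of 252 fold changes of the Gm17017 and Gm10552 rows recomputed under other settings, 230 kept their direction and their side of the threshold. For the combination against DMSO, the number of members called was 2 with RLE scaling, DESeq2, both other low-count filters, the leakage covariate or only the 2 groups compared. It ranged from 0 to 2 with 1 library left out, and was 0 without either DMSO library or either combination library, where the log2 fold changes were 1.59 to 1.66 for Gm17017 and 2 to 2.12 for Gm10552. It was 0 without DMSO replicate 1 and olaparib replicate 2 together. Leaving out a library also changed the rows tested, from 6379 to between 7133 and 7660, and the cause was not tested further. For the main effect of EZM8266 the number was 2, with a range of 0 to 2 when 1 library was left out: 0 without DMSO replicate 2, and 1 without DMSO replicate 1, olaparib replicate 1 or olaparib replicate 2. It was 1 without the pair of libraries. In these settings the log2 fold changes were 1.04 to 1.47 for Gm17017 and 1.25 to 1.30 for Gm10552. For the combination against olaparib it was 1 in place of 0 with no low-count filter and with the leakage covariate, and the cause was not tested.

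The values that changed sign were -0.17 for Gm17017, olaparib against DMSO, without the pair of libraries and -0.16 to 0.71 with 1 library left out (lowest without olaparib replicate 2), the interaction of Gm17017 at -0.25 to 0.62 (lowest without olaparib replicate 1), and that of Gm10552 at -0.24 to 0.1 (highest without EZM8266 replicate 2). As percent of the window's counts, which these rows dominate, the combination over DMSO gave log2 ratios of 0.3 and 0.74 in place of 1.62 and 2.06.

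Same-numbered libraries deviated together in the pairs of groups without DMSO (r of 0.22 to 0.29) and apart in all pairs with DMSO (-0.15 to -0.32). With 2 libraries per group, these values cannot decide whether the samples were paired. With the replicate block, the number of members called was 2 in the comparison of the combination with DMSO and in the main effect, and 0 elsewhere. The tested rows held 11 to 65 fragments per library, and the rows of Sp140, Sp100 and Sp110 held 0 to 9. These low counts limit what can be detected. They are not a measure of sequencing depth, since 4.54% to 5.4% of each library's fragments were assigned to a row.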
